A study of Arabidopsis thaliana with 42 samples.

Results

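STZ (also called ZAT10), WRKY53 and ORA47 are transcription factors of Arabidopsis thaliana whose transcripts are known to rise soon after touch and wounding. They were followed through every probe set that the annotation ties to one of these genes alone, which gave 3 probe sets, 1 per gene, among 13513 probe sets with a single gene (13350 genes). STZ is locus AT1G27730 on probe set 261648_at, WRKY53 is AT4G23810 on 254231_at, and ORA47 is AT1G74930 on 262211_at. Values are the authors' deposited log2 expression values, so a difference of 1 is a doubling, and no level of 1 probe set is set against that of another.

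STZ is a zinc finger protein that carries a repression motif and acts mainly as a transcriptional repressor in responses to salt, cold, drought and wounding. WRKY53 binds W-box motifs and is known as an early regulator of leaf senescence and of defence. ORA47 belongs to the AP2/ERF family and activates genes of jasmonate synthesis, the hormone pathway through which plants answer wounding. In seedlings the transcripts of such early response genes change within minutes of handling, cold or light shifts, and they respond to several hormones, ethylene among them.

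The series asked how isoforms of ACC synthase (ACS), the enzymes that make the direct precursor of ethylene, act in combination. Whole seedlings of 10 days, grown in 16 hours of light at 25 C after a cold period of 2 days at 4 C, gave RNA for 42 one-colour arrays in 14 groups of 3, which the titles call biological replicates. A single mutant set of 27 arrays held the wild type Col and 8 lines whose names point to 1 ACS gene each (acs1A and acs4A, acs2B with acs2C, acs5C with acs5D, then acs6E and acs9B), and a higher order set of 15 arrays held its own Col and the lines penta, hexa, hepta and miR. The labels name no allele and do not say which genes are mutated in penta, hexa, hepta or miR, and no ACS gene had a named probe set here, so the lines could not be checked by their own mutated genes. Array medians lay at 6.77 to 6.83 in the single set and at 6.24 to 6.31 in the higher order set, and every comparison was therefore made within a set. Of 18 marker genes of green shoot, root and dry seed, 4 were measured. The shoot markers RCA and PORB and the root markers PYK10 and EXPA7 had levels of at least 13.73, 8.72, 12.91 and 5.77 on all 42 arrays. With all arrays RCA, PYK10 and EXPA7 were called in none of the 12 lines, and without Col replicate 1 EXPA7 was called higher in acs6E (0.51, adjusted p = 0.024). PORB, an enzyme of chlorophyll synthesis, was called lower in acs1A, acs2B, acs5C, acs5D and acs6E, with differences of -2.08 to -0.44, and was not called in acs2C, acs4A or acs9B (-0.09 to -0.01). Its acs5D call was lost without Col replicate 1 (adjusted p = 0.12) or acs5D replicate 1 (0.077) or 3 (0.069). It was called higher in hexa, hepta and miR, by 0.69 to 1.11, and its part in the results below was not tested. The arrays hold RNA of whole seedlings, in which fewer cells of a type and less RNA per cell cannot be told apart. All p-values rest on the spread among these samples, which may be technical in part.

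Transcripts of bacteria and phage, which are added to the plant RNA at labelling or hybridization, separated the Col arrays of the single set from the single lines. Between 26 and 36 of 45 such probe sets differed from Col in each single line. For thr, a labelling control, the 3 Col arrays ranged from 6.81 to 6.97 and the 24 arrays of lines from 7.41 to 8.43, so in the single set the handling of the Col arrays and the genotype cannot be told apart. In the higher order set no such probe set differed from Col in penta, hexa or hepta, and 5 did in miR. Between higher order lines, 5 differed in penta against miR, 1 in hexa against miR and 2 in hepta against miR. None differed in the pairs without miR.

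In the single set the levels of the 3 genes were highest in Col. All 3 were called lower in acs1A, acs2C, acs4A and acs6E, against 12.5%, 14.5%, 10.7% and 15.5% of all 22746 tested probe sets called lower in these lines. WRKY53 and ORA47 were called lower in acs2B and acs9B, where 12.5% and 14.7% of all probe sets were. Only ORA47 of the 3 was called in acs5C and in acs5D, where 10.5% and 10.3% were. A gene was called at an adjusted p below 0.05 in limma.

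The repressor STZ read 8.06, 8.30 and 8.89 on the 3 Col arrays of the single set (8.42 ± 0.43, SD, n = 3), and 4 of 8 lines were called lower. In acs2C its values of 6.95, 7.03 and 6.82 lay in a narrow range far below Col, and its level fell by 1.49 ± 0.34 (SE) on the log2 scale, a 2.80-fold difference (adjusted p = 0.0023). In acs6E it read 7.77, 6.59 and 7.05 and fell by 1.28 (adjusted p = 0.0064). In acs1A it read 7.37, 7.75 and 6.60 and fell by 1.17 (adjusted p = 0.016). Each of these 3 lines lay below every Col array, although acs1A and acs6E spanned more than a log2 unit among their own replicates. In acs4A STZ read 7.04, 7.96 and 6.98 and fell by 1.09 (adjusted p = 0.026). The values of acs5D, 7.51, 7.54 and 7.66, were also all below Col, with a difference of -0.85 that did not pass (adjusted p = 0.091). In acs9B, at 7.22, 7.76 and 8.02, the difference was -0.75 (adjusted p = 0.11). How often all probe sets showed no overlap, with Col or between lines, was not counted. The lack of overlap is therefore a description only, here and for the genes and pairs below. The lines acs2B and acs5C overlapped Col. In acs2B STZ read 6.94, 8.37 and 8.32 (difference -0.54, adjusted p = 0.28). In acs5C it read 8.26, 7.86 and 7.89 (difference -0.41, adjusted p = 0.43). In acs1A the call did not hold without Col replicate 3 (adjusted p = 0.087) or without its own replicate 3 (0.11). That in acs4A was lost without Col replicate 3 (0.12) or without replicate 1 (0.085) or 3 (0.099) of acs4A, and that in acs6E without its replicate 2 (0.053).

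WRKY53, the senescence and defence regulator, read 6.97, 6.27 and 7.40 on the same Col arrays (6.88 ± 0.57), and 6 of 8 lines were called lower. In acs1A it read 5.93, 5.71 and 5.74 and fell by 1.08 ± 0.19 (SE), a 2.12-fold difference (adjusted p = 0.00031). In acs2C the values 5.78, 5.88 and 5.77 were close together, and the level fell by 1.07 (adjusted p = 0.00026). In acs9B, at 5.69, 5.87 and 6.09, it fell by 1.00 (adjusted p = 0.00062). These 3 lines lay wholly below Col, as did the next pair. In acs4A WRKY53 read 5.63, 6.05 and 6.13 and fell by 0.94 (adjusted p = 0.0012). In acs6E it read 5.99, 6.10 and 6.10 and fell by 0.82 (adjusted p = 0.0025). The remaining called line, acs2B, overlapped Col: its values were 5.89, 6.40 and 6.03, its level fell by 0.78 (adjusted p = 0.0052), and without Col replicate 3 the call was lost (adjusted p = 0.052). The lines acs5C and acs5D stood nearest to Col. In acs5C WRKY53 read 6.85, 6.33 and 6.39, with a difference of -0.35 (95% interval -0.76 to 0.05, adjusted p = 0.21). In acs5D it read 6.62, 6.28 and 6.60, with a difference of -0.38 (95% interval -0.78 to 0.02, adjusted p = 0.19). Both overlapped Col through Col replicate 2, the lowest of the Col arrays, and without that array both were called (adjusted p = 0.0097 and 0.0082).

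ORA47, the activator of jasmonate synthesis genes, was called lower in all 8 single lines. Its 3 Col arrays read 5.69, 7.27 and 7.94 (6.97 ± 1.15), so Col replicate 1 lay near the level of the lines and replicates 2 and 3 far above it. The lowest line was acs2C, at 5.36, 5.17 and 5.08, where ORA47 fell by 1.77 ± 0.33 (SE), a 3.40-fold difference (adjusted p = 0.00034). In acs6E it read 5.42, 5.21 and 5.23 and fell by 1.68 (adjusted p = 0.00044). In acs1A it read 5.48, 5.56 and 5.29 and fell by 1.53 (adjusted p = 0.0017). The values of acs2B were 5.03, 5.68 and 5.61, and ORA47 fell by 1.53 here as well (adjusted p = 0.0016). In all 4 lines every array lay below every Col array, although acs2B replicate 2 lay only just under Col replicate 1. The narrowest group was acs5D, at 5.59, 5.67 and 5.59, which also lay below Col, and there ORA47 fell by 1.36 (adjusted p = 0.0055). The other lines reached above Col replicate 1 in 1 array each. In acs4A ORA47 read 5.25, 6.13 and 5.18 and fell by 1.45 (adjusted p = 0.0027). In acs9B it read 5.30, 5.51 and 5.78 and fell by 1.44 (adjusted p = 0.0024), and in acs5C, at 5.83, 5.62 and 5.38, it fell by 1.36 (adjusted p = 0.0050). Over the whole table, 507 probe sets (2.23%) were called lower in all 8 lines.

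**Figure D1:**
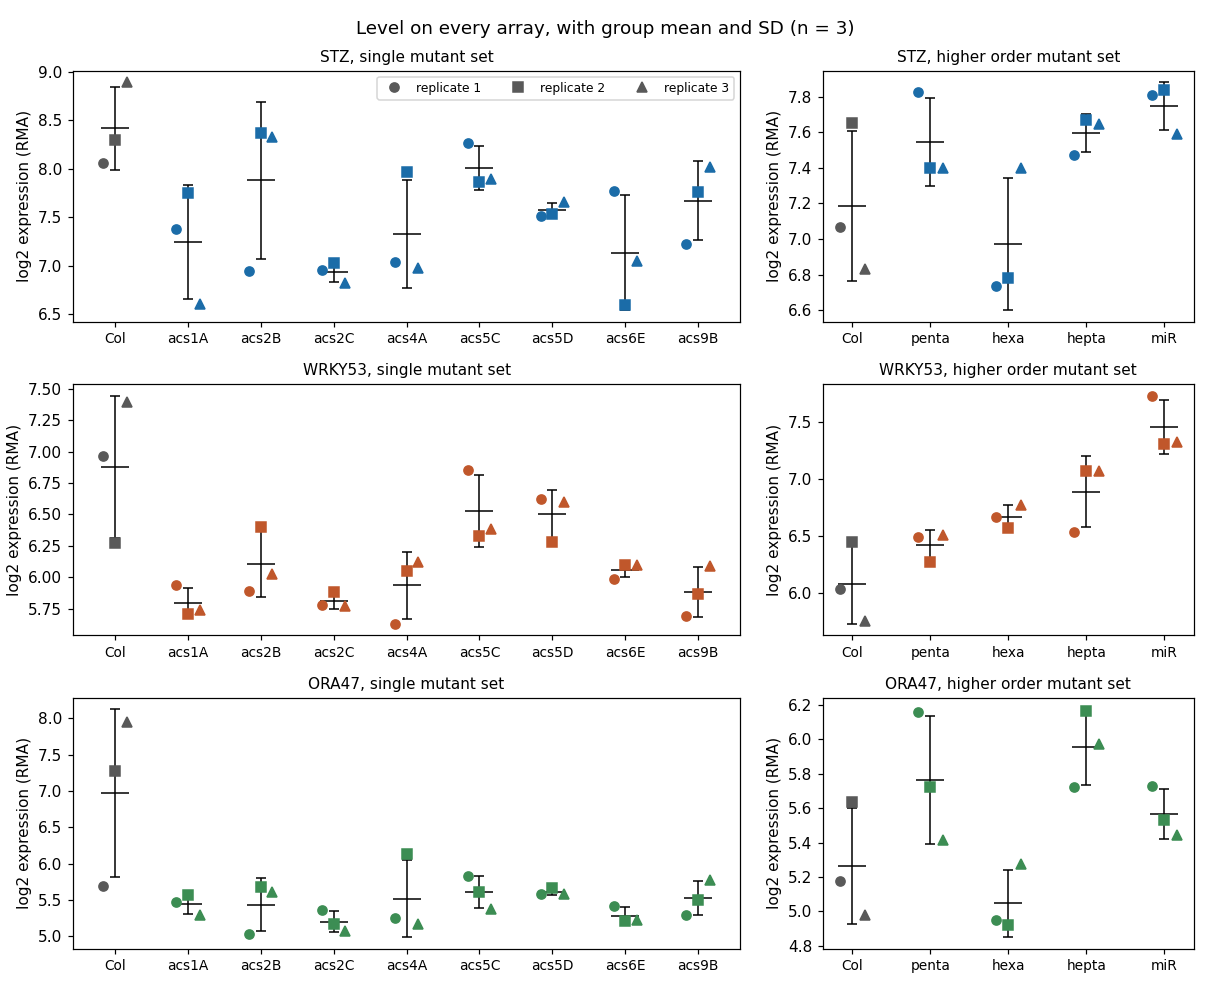
Log2 expression of STZ, WRKY53 and ORA47 on each of the 42 arrays, by group, with the single mutant set at the left and the higher order set at the right, each panel on a scale of its own. Marks are replicates 1, 2 and 3, horizontal lines group means and bars the SD (n = 3). The spread of ORA47 over its Col arrays, 5.69 to 7.94, is wider than that of any line.

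The Col arrays carried much of the size of these differences. Without Col replicate 3, ORA47 was called in 7 of 8 lines with differences of -1.28 to -0.87, and acs5D was the line that no longer passed (adjusted p = 0.052). Without Col replicate 1 all 8 lines were called, with differences of -2.40 to -1.99. Leaving out Col replicate 2 gave -1.61 to -1.20 and 8 calls. The sign was thus the same whichever Col array was left out, while the size of the ORA47 difference in acs2C ran from -1.28 to -2.40. Without Col replicate 3, STZ was called in 2 lines and its differences ran from -1.25 to -0.17. WRKY53 was called in 5 lines without Col replicate 3 (-0.83 to -0.09) and in 8 without Col replicate 2 (-1.39 to -0.66). When a line was fitted with the Col arrays alone, so that the spread came from 6 arrays, ORA47 stayed called in acs2C and acs6E only (adjusted p = 0.027 and 0.030). In the other lines its adjusted p then lay between 0.057 and 0.18.

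**Figure D2:**
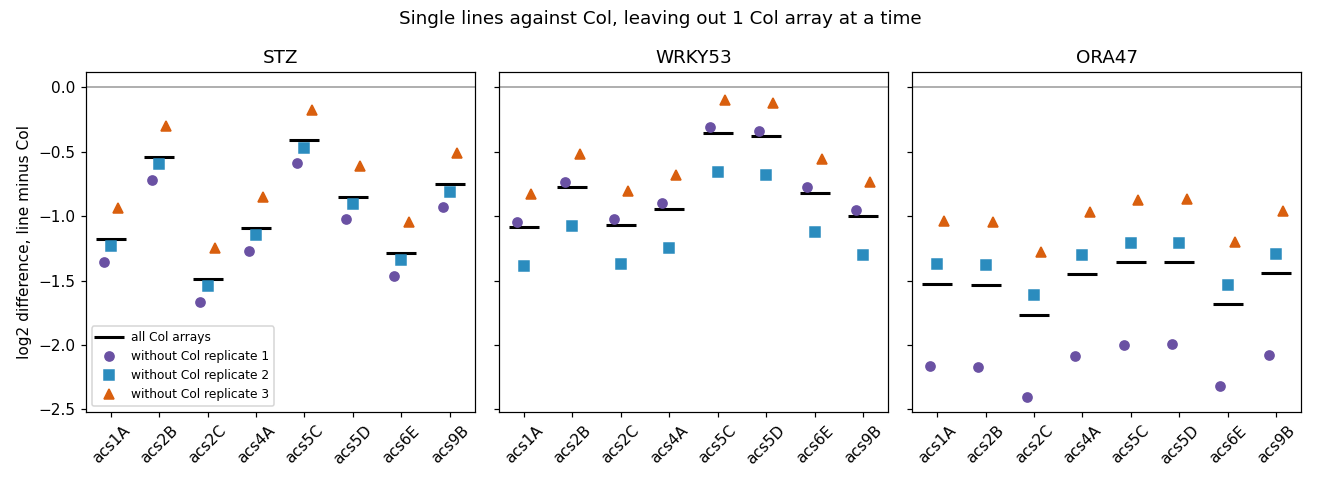
Log2 difference from Col of each gene in the 8 single lines, with all Col arrays (bars) and with each Col replicate left out (marks), on a log2 axis where 0 means no difference. For ORA47, leaving out replicate 1 moves the lines to -2.40 to -1.99, and leaving out replicate 3 moves them to -1.28 to -0.87.

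**Figure D3:**
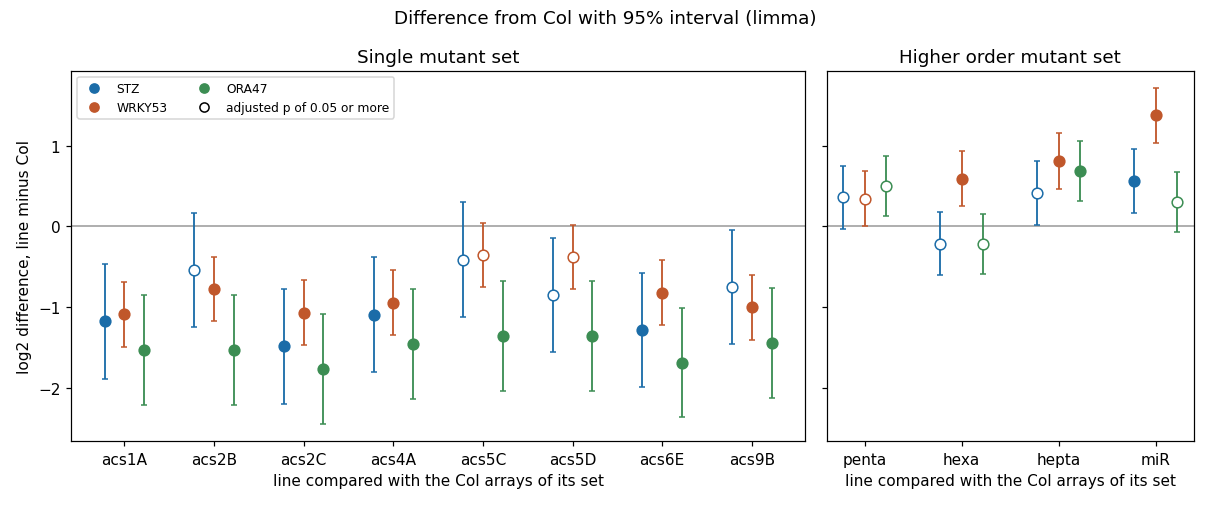
Log2 difference from the Col arrays of the same set for STZ, WRKY53 and ORA47, with 95% intervals from limma, by line. Filled points passed an adjusted p of 0.05 and open points did not. All 24 differences lie below 0 in the single set, whereas 10 of the 12 in the higher order set lie above it. The lines of a set share the same Col arrays, so these signs are not independent. The share of all probe sets with such signs was not counted. In the single set the added transcripts also separated Col from the lines.

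Comparisons that leave Col out asked whether the single lines differed from one another. WRKY53 did, by an F-test over the 24 line arrays (adjusted p = 0.00066), as did 42.4% of all probe sets. The test was not passed by STZ (adjusted p = 0.11) or ORA47 (adjusted p = 0.44). Among the 28 pairs of lines, in which 9.67% of all tests were called, WRKY53 was called in 3, STZ in 0 and ORA47 in 0. At an unadjusted p below 0.05 these numbers were 11, 6 and 0.

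In each of the 3 called pairs of WRKY53 the higher line was one named for ACS5. Calls in 3 of 28 pairs are near the 9.67% of all tests called, so they do not set WRKY53 apart from other probe sets. WRKY53 was lower in acs2C than in acs5C, with a log2 difference of -0.71 ± 0.19 (SE, adjusted p = 0.024), in a pair where 8.37% of probe sets were called. It was higher in acs5C than in acs9B by 0.64 (adjusted p = 0.023), where 19.1% were called. It was lower in acs1A than in acs5D by a log2 difference of -0.71 (adjusted p = 0.046), where 3.04% were called. In none of these pairs did the arrays overlap, but WRKY53 had no overlap in 13 of the 28 pairs and was called in only 3. The share of all probe sets without overlap was not counted. Against the mean of the other 7 lines, WRKY53 was higher in acs5C by 0.51 ± 0.15 (adjusted p = 0.049), the only call among such comparisons of the 3 genes, against 10.3% of all such tests. The pairs acs1A with acs5D and acs5C with acs9B lie across a division in the hybridization control bioC, which was above 8 on all arrays of acs5D, acs6E and acs9B and on acs2B replicate 2, and below 8 on the other line arrays. With that division as a term, the acs1A to acs5D difference was -0.26 (adjusted p = 0.85) and the acs5C to acs9B difference 1.09 (adjusted p = 0.028). Since acs2B is the only line with arrays on both sides, that term rests on acs2B replicate 2 against replicates 1 and 3. Among lines on the same side of it, WRKY53 in acs5C was 0.65 ± 0.11 above the others (adjusted p = 0.0010) and in acs9B 0.44 below them (difference -0.44 ± 0.12, adjusted p = 0.0089). The acs1A to acs5D call was lost without any 1 of its 6 arrays, the acs2C to acs5C call without any acs2C array or acs5C replicate 1, and the acs5C to acs9B call without acs5C replicate 1 or acs9B replicate 1 or 2.

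Lines named for the same gene were compared directly. For acs5C and acs5D, between which 2.29% of probe sets were called, none of the 3 genes was. The difference of WRKY53 was 0.02 (95% interval -0.38 to 0.42), that of ORA47 was -0.003 (-0.68 to 0.68) and that of STZ was 0.44 (-0.27 to 1.14). The lines acs2B and acs2C stood further apart over the table, with 21.4% of probe sets called. Here STZ was 0.95 ± 0.34 higher in acs2B, just short of the threshold (adjusted p = 0.051), and the groups overlapped because acs2B replicate 1, at 6.94, lay among the acs2C arrays. Without that array the difference was 1.41 (adjusted p = 0.0044). Leaving out acs2B replicate 2 or 3 instead gave 0.70 or 0.72 (adjusted p = 0.22 for both). Without any 1 acs2C array the adjusted p was 0.086 to 0.13, so the difference rested on which array was left out. WRKY53 differed between acs2B and acs2C by 0.29 (-0.11 to 0.69) and ORA47 by 0.23 (-0.44 to 0.91).

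From high to low, STZ ran acs5C, acs2B, acs9B, acs5D, acs4A, acs1A, acs6E, acs2C. WRKY53 ran acs5C, acs5D, acs2B, acs6E, acs4A, acs9B, acs2C, acs1A, and ORA47 ran acs5D, acs5C, acs9B, acs4A, acs1A, acs2B, acs6E, acs2C. No neighbours in these orders passed the test against each other. The line acs5C was first or second in all 3 orders and acs2C last or next to last, a statement of rank only. The acs2C to acs5C pair was called for WRKY53 alone. For none of the genes did the pair tests set either line apart from all others.

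In the higher order set the genes were at or above the level of Col in most lines, and WRKY53 differed most from Col in hexa, hepta and miR. WRKY53 was called higher in hexa, hepta and miR, STZ in miR, and ORA47 in hepta. Thus 0 of the 3 genes were called higher in penta, 1 in hexa, 2 in hepta and 2 in miR, against 2.08%, 4.44%, 6.96% and 12.3% of all probe sets. None of the 3 was called lower in any of these lines.

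WRKY53 read 6.03, 6.44 and 5.76 on the Col arrays of this set (6.08 ± 0.35). In miR it read 7.73, 7.30 and 7.32 and rose by 1.37 ± 0.16 (SE), a 2.59-fold difference (adjusted p = 1.0e-05). In hepta it read 6.53, 7.07 and 7.07 and rose by 0.81 (adjusted p = 0.0025). In hexa it read 6.67, 6.57 and 6.77 and rose by 0.59 (adjusted p = 0.031). These 3 lines lay above every Col array. The values of penta, 6.49, 6.27 and 6.51, overlapped Col, with a difference of 0.35 (adjusted p = 0.32). The calls in miR and hepta were kept whichever single array was left out, and the hexa call was lost without Col replicate 1 (adjusted p = 0.10) or 3 (0.16) and without any 1 of its own arrays (0.055 to 0.11).

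WRKY53 also separated these lines from one another, with an adjusted p of 0.00044 over the 4 lines, an F-test that 17.3% of all probe sets passed. It was called in 3 of 6 pairs of lines, against 8.08% of all tests, and each of the 3 involved miR. The pairs with miR were also the only ones of this set in which added transcripts differed. The part of this in the WRKY53 differences was not tested. Its level was lower than in miR by a log2 difference of -1.03 ± 0.16 in penta (adjusted p = 0.00026, 16.2% of probe sets called) and -0.78 in hexa (adjusted p = 0.0057, 7.83% called). The hepta and miR arrays did not overlap either, with a difference of -0.56 (adjusted p = 0.034, 9.59% called). This last call was lost without hepta replicate 1 (adjusted p = 0.19) or miR replicate 1 (0.15), with these 2 lines fitted alone (0.064) and with array weights (0.073). The order was miR, hepta, hexa, penta, in which only the first step passed the test. Against the mean of the other 3 lines, WRKY53 was higher in miR by 0.79 ± 0.13 (adjusted p = 0.00053) and lower in penta, with a difference of -0.58 (adjusted p = 0.0087). Among all probe sets, 8.36% of such comparisons were called.

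STZ read 7.07, 7.65 and 6.83 on the Col arrays of this set (7.18 ± 0.42). In miR its values of 7.81, 7.84 and 7.59 overlapped Col through Col replicate 2, and it rose by 0.56 ± 0.19 (adjusted p = 0.039). In hepta it read 7.47, 7.67 and 7.65, with a difference of 0.41 (adjusted p = 0.18). In penta it read 7.83, 7.40 and 7.40, with a difference of 0.36 (adjusted p = 0.39). Those 3 lines had their means above Col. In hexa, where STZ read 6.73, 6.78 and 7.40, the difference was -0.21 (adjusted p = 0.60). The miR call was lost without Col replicate 1 (0.13) or 3 (0.20) and without miR replicate 1 (0.10) or 2 (0.11), and without Col replicate 2 hepta was called too (adjusted p = 0.020).

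ORA47 read 5.18, 5.64 and 4.98 on the same Col arrays (5.27 ± 0.34). In hepta it read 5.72, 6.16 and 5.98, above every Col array, and rose by 0.69 ± 0.18 (adjusted p = 0.015). In penta it read 6.16, 5.72 and 5.42, with a difference of 0.50 (adjusted p = 0.15). The miR arrays, at 5.73, 5.53 and 5.45, gave a difference of 0.30 (adjusted p = 0.26). Only hepta was thus clear of Col. The lowest line was hexa, at 4.95, 4.92 and 5.27, with a difference of -0.22 (adjusted p = 0.56). The hepta call was lost without Col replicate 1 (adjusted p = 0.064) or 3 (0.082) or hepta replicate 2 (0.073), and without Col replicate 2 penta was called (adjusted p = 0.036).

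For STZ and ORA47 the clearest feature of the higher order set was the low level in hexa. Both differed among the 4 lines (F-test, adjusted p = 0.0085 for STZ and 0.0038 for ORA47). Against the mean of penta, hepta and miR, hexa was lower in STZ, with a difference of -0.66 ± 0.15 (adjusted p = 0.017), and in ORA47, with -0.72 ± 0.14 (adjusted p = 0.0070). Of the 6 pairs, 1 was called for STZ: it was lower in hexa than in miR, with a difference of -0.78 ± 0.19 (adjusted p = 0.015). For ORA47 2 pairs were called, hexa below hepta with a difference of -0.91 ± 0.18 (adjusted p = 0.0058, 3.95% of probe sets called) and penta above hexa by 0.72 (adjusted p = 0.018, 7.31% called). The arrays did not overlap in any of these pairs, and each of the 2 genes had no overlap in 3 of the 6 pairs. For all probe sets the share without overlap was not counted. Against Col, WRKY53 was called higher in hexa, and STZ and ORA47 were not called (differences of -0.21 and -0.22). Against the mean of the other lines, STZ and ORA47 were called lower in hexa. WRKY53 was not called there, with a difference of -0.25 (adjusted p = 0.33). The STZ call between hexa and miR was lost without hexa replicate 1 (adjusted p = 0.088) or 2 (0.066) or miR replicate 2 (0.061). The ORA47 call between penta and hexa was lost without replicate 1 or 2 of either line (0.053 to 0.11). The level of STZ fell in the order miR, hepta, penta, hexa and that of ORA47 in the order hepta, penta, miR, hexa, and no neighbours in these orders passed the test.

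The 3 genes varied more among replicates than nearly all other probe sets. In the single set the SD within groups, pooled over the 9 groups, was 0.480 for STZ, 0.460 for ORA47 and 0.267 for WRKY53, against a median of 0.106 over all tested probe sets. These SDs were at percentiles 99.85, 99.82 and 98.24 of all probe sets. The higher order values were 0.285, 0.269 and 0.245, at percentiles 99.19, 98.93 and 98.34, against a median of 0.108. Within Col of the single set alone, the SD of ORA47, 1.15, was at percentile 99.99, and that of WRKY53 was 0.57. Col thus raised the pooled value of both genes. In the single lines the SD ran from 0.05 to 0.53 for ORA47 and from 0.06 to 0.29 for WRKY53. Some lines were far tighter than the pooled value: STZ and ORA47 had SDs of 0.08 and 0.05 in acs5D.

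STZ and ORA47 moved together from array to array. Over the 27 arrays of the single set their Pearson r was 0.74 (adjusted p = 6e-05, from 100000 permutations and the smallest they can give) and Spearman's rho 0.88. Without the 2 arrays farthest from the median of STZ, r was 0.68. Taken within groups, as deviations from the group mean, r was 0.66 (adjusted p = 0.00012), so arrays of 1 group that were high in STZ tended to be high in ORA47. The array pair acs4A replicate 2 and acs2B replicate 1 shows it: the first was the highest of its group in both genes and the second the lowest of its group in both. Over the higher order arrays r was 0.85 (15 arrays, permutation adjusted p = 0.00022, rho 0.81) and 0.87 within groups (adjusted p = 0.0050), and without hexa replicates 1 and 2 it was 0.76.

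The relations with WRKY53 were looser. With STZ its r was 0.66 in the single set (permutation adjusted p = 0.00022, rho 0.57, r without the farthest arrays 0.59), 0.53 without Col and 0.41 within groups (adjusted p = 0.090). In the higher order set it was 0.61 (adjusted p = 0.020), with rho 0.45 (adjusted p = 0.11), and within groups 0.67 (adjusted p = 0.024). With ORA47 its r was 0.63 in the single set (permutation adjusted p = 0.0039, rho 0.59), and without Col replicates 3 and 1 it was 0.38. Within groups of that set r was 0.28 (adjusted p = 0.67), and over the 24 arrays without Col it was 0.49 (adjusted p = 0.024). Over the higher order arrays the r of WRKY53 with ORA47 was 0.38 (adjusted p = 0.16, rho 0.28), and within groups 0.70 (adjusted p = 0.024). These 6 relations were tested together, and arrays of a set share their normalization. Except within groups, the permutations for all pairs of genes ignored the groups of replicates, so differences between groups enter those p-values.

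**Figure D4:**
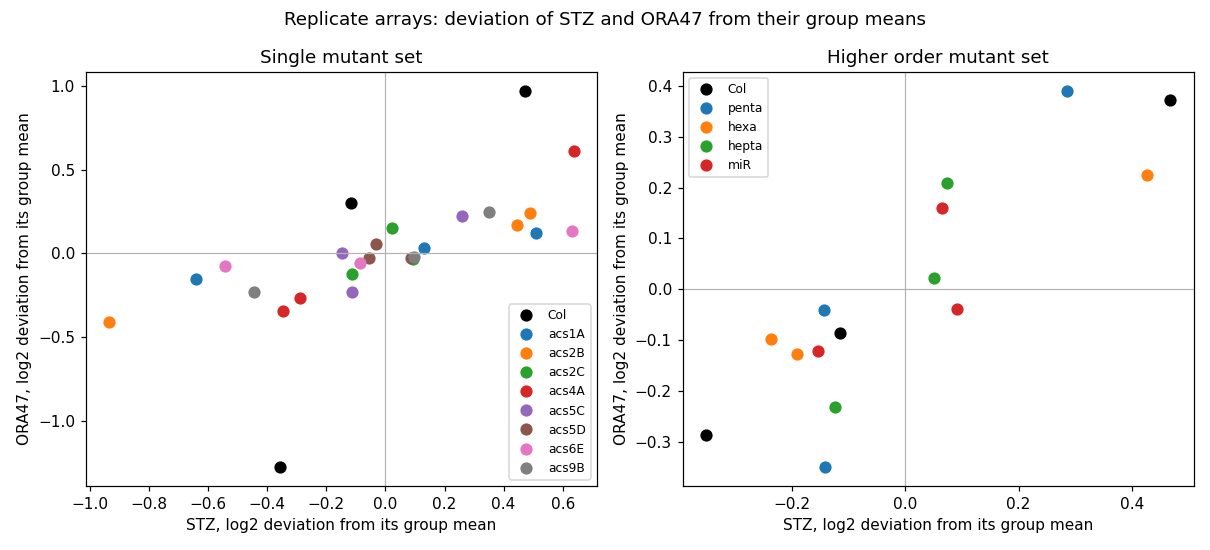
Deviation of each array from its group mean for STZ (horizontal axis, log2) and ORA47 (vertical axis, log2), with 27 arrays of the single set and 15 of the higher order set in separate panels. The correlation of these deviations was 0.66 in the single set and 0.87 in the higher order set.

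The single-gene probe sets most like each member were ranked among 13512 by the lower of the r over the 27 arrays and the r over the 15 arrays. All but 1 of the nearest carry only a locus code. Nearest to STZ were AT3G19030, with r of 0.89 and 0.89, and AT4G27280, with 0.87 and 0.94, followed by AT1G72920, AT1G23710 and AT3G25600. ORA47 was at rank 9 for STZ and WRKY53 at rank 37. AT4G27280 was called lower in 5 of 8 single lines and in none of the 4 higher order lines in either direction, and within groups its r with STZ was 0.92 and 0.89. For the 5 nearest genes the within-group r with STZ ran from 0.76 to 0.92 in the single set and from 0.60 to 0.89 in the higher order set. These genes were picked by r over the same arrays, deviations within groups included, so this is a description and no separate support.

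For ORA47 the nearest were AT1G23710 (0.74 and 0.76), AT5G66650, STZ itself at rank 3 (0.74 and 0.85), AT4G29780 and AT2G03750. AT1G23710 stood in the first 5 of both STZ and ORA47. AT2G03750 was called lower in all 8 single lines, as ORA47 was, with differences of -0.71 to -0.29, and in none of the higher order lines. WRKY53 had other neighbours: AT5G13090 (0.73 and 0.86), AT1G73760, AT5G03230, AT4G10270 and AT3G56360, with STZ at rank 29 and ORA47 at rank 472. AT5G03230 was called lower in 6 of 8 single lines and higher in all 4 higher order lines, by 0.45 to 1.14. AT5G13090 was called lower in 8 of 8 and higher in 2 of 4. Within groups the r of WRKY53 with these 2 genes in the single set was 0.29 and 0.20, in the order AT5G13090 and AT5G03230, and 0.52 to 0.63 with the other 3. In the higher order set the within-group r ran from -0.02 for AT4G10270 to 0.72 for AT5G13090. The neighbours of ORA47 and WRKY53 were also picked by r over the same arrays, Col included. Their calls against Col and their r values are therefore a description and no separate support.

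Few other genes of the touch, wound and jasmonate pathways could be read. Of 114 entries in 8 lists, 12 had a probe set of their own. None of the 4 listed touch genes and none of the 19 listed AP2/ERF factors were among them. Other members of the AP2/ERF family, to which ORA47 belongs, were not looked up. Over these 12 genes, between 0 and 3 were called lower in each single line and none higher, where 10.3% to 15.5% of all probe sets were called lower and 7.35% to 13.4% higher, with medians between -0.11 and 0.02 against -0.03 to -0.004 for all tested probe sets. In penta 0 were called higher, in hexa 2, in hepta 2 and in miR 3, with 1 called lower in each (1.13% to 8.61% of all probe sets) and medians of 0.04 to 0.11 against -0.003 to 0.02.

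Of the WRKY list 2 of 16 were measured. WRKY22, a factor of the early defence response, fell in acs2B by 0.99 (adjusted p = 0.014) and in acs6E by 1.05 (adjusted p = 0.0071). It rose in hexa by 0.62 (adjusted p = 0.027), in hepta by 0.98 (adjusted p = 0.00058) and in miR by 1.09 (adjusted p = 0.00013), the same 3 lines in which WRKY53 rose. WRKY6, linked to senescence, was called in none of the 12 lines, with differences of -0.10 to 0.29. Without Col replicate 1, however, WRKY6 was called higher in 6 single lines (0.31 to 0.44, adjusted p from 0.0036 to 0.030) and with array weights in 5 (0.32 to 0.38, adjusted p from 0.017 to 0.038). The acs2B call of WRKY22 was lost without Col replicate 3 (adjusted p = 0.060) or acs2B replicate 1 (0.099), and the hexa call without Col replicate 1 (0.11) or 3 (0.083) or any 1 hexa array (0.061 to 0.095).

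Of 21 calcium, kinase and early defence genes 6 were measured, and 2 of the 6 were called anywhere. The calmodulin-like gene CML38 fell in acs2C by 0.52 (adjusted p = 0.020) and in acs6E by 0.79 (adjusted p = 0.00082), and rose in hepta by 0.58 (adjusted p = 0.028) and in miR by 0.67 (adjusted p = 0.0073). The calmodulin-like gene CML23 fell in acs2C by 0.72, in acs4A by 0.62 and in acs9B by 0.44, and was called in none of the higher order lines. CML37, CML39 and the ubiquitin ligase genes PUB22 and PUB23 were called in no line with all arrays. Without Col replicate 3, PUB22 was called higher in acs5C (0.36, adjusted p = 0.030) and acs9B (0.44, adjusted p = 0.0082). The calls of CML38 in acs2C and hepta were lost without Col replicate 1 or 3 (adjusted p from 0.059 to 0.11) and without acs2C replicate 1 (0.066) or hepta replicate 1 (0.072) or 3 (0.12). That of CML23 in acs9B was lost without Col replicate 3 (0.080) or acs9B replicate 1 (0.050) or 3 (0.069).

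From jasmonate synthesis, the process that ORA47 is known to activate, only OPCL1 of 13 genes was measured. It was called in none of the 12 lines (differences of -0.10 to 0.45). In the 4 higher order lines its differences were 0.23 to 0.45. There, a call of OPCL1 as higher appeared in 1 case on leaving out an array and in 2 cases under the other alternatives. Of 19 jasmonate signalling and response genes JMT was measured, which methylates jasmonate. It was called in no single line and fell in all 4 higher order lines, by 0.38 in penta and by 0.51 in hexa at the ends of the range, and in penta the call was lost without Col replicate 1 (adjusted p = 0.22) or 3 (0.087) or any 1 penta array (0.11 to 0.12). Of 14 senescence and salicylate genes SAG101 was measured, which takes part in senescence and defence. It fell in acs2B by 0.37 and in acs6E by 0.33, and rose in hexa by 0.44 (adjusted p = 0.038) and in miR by 0.53 (adjusted p = 0.0056), and its hexa call was lost without Col replicate 1 (0.099) or 3 (0.14) or hexa replicate 2 (0.12) or 3 (0.13). The 1 zinc finger gene of 8 on the list of STZ relatives, AT3G53600, was called in no line, with differences of -0.06 to 0.16.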

How the data were processed

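Per the submitters' processing notes, RMA gave the deposited log2 expression values, 1 for each probe set on each array. This method corrects background, normalizes by quantiles and summarises probes, and it compresses differences of dim probe sets. The version of RMA and the grouping of the arrays in it are not given here. Precision is limited by having 3 arrays in a group. No 2 arrays of a set held identical values.

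Of 22810 probe sets, 64 controls were left out and 22746 tested. Names came from GEO's platform annotation and the RefSeq table of TAIR10.1: 13513 probe sets had a single gene, 503 several and 8730 were unnamed here. Models were fitted with lmFit and eBayes of limma 3.58.1 in R 4.3.3, separately for each set, with 1 mean per group and no filter. P-values are two-sided and adjusted by Benjamini-Hochberg over all tested probe sets within a comparison, not over the pairs of lines. The added bacterial and phage transcripts were fitted together with all 22810 probe sets. Correlations used 100000 permutations, free over the arrays of a set and within groups for the deviations.

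The members, gene lists and tests were chosen with earlier results of these data known. Named beside them were the 5 single-gene probe sets most like each member and up to 4 genes of each list called most often, the brightest probe set standing for a gene. The lists were touch genes, STZ relatives, WRKY factors, AP2/ERF factors, jasmonate synthesis, jasmonate signalling, calcium, kinase and early defence genes, and senescence and salicylate genes. A planned description of promoter and protein sequences was not run, since no sequences were used here.

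The fit was tested on simulated data with 200 of 22746 probe sets changed. For acs1A it recovered 87% of those changed by 0.5 (log2) and 100% of those changed by 1, with 10 false calls. For penta it recovered 73% and 100%, also with 10 false calls. The changed probe sets were drawn at random, and each had the same simulated SD in all groups. STZ, WRKY53 and ORA47 had SDs above nearly all probe sets, so these rates do not say how often their changes would be called. Alternatives were a second quantile normalization, fits on the 2 groups alone, a replicate block, a trended robust prior, array weights, a filter on low levels, Bonferroni adjustment, bioC as a batch and leaving out each array.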

Additional observations from a re-analysis of the deposited data

Results flagged for a closer look

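Among the pairs of lines, 9 differences passed the test of the difference itself (limma, adjusted within the pair over all probe sets), which for lines of 1 set is the test of whether their differences from Col were unequal. For WRKY53 in the single set these were acs1A minus acs5D at -0.71, acs2C minus acs5C at -0.71 and acs5C minus acs9B at 0.64. Among higher order lines they were, for WRKY53, penta minus miR at -1.03, hexa minus miR at -0.78 and hepta minus miR at -0.56. For ORA47 they were penta minus hexa at 0.72 and hexa minus hepta at -0.91, and for STZ hexa minus miR at -0.78. Groups of 3 arrays are too small for a test of outlying samples.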

How the results depend on the processing

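No difference of STZ, WRKY53 or ORA47 that passed the test changed sign under any alternative, and neither did one of the other named genes against Col. Fitting only the 2 groups compared called ORA47 in 2 single lines against Col, and 4, 10 and 3 pairs of single lines for STZ, WRKY53 and ORA47 (with all arrays 0, 3 and 0), and 0 higher order lines against Col and 2 pairs for STZ. It also ended the calls against Col of WRKY53 in acs2B (adjusted p = 0.078) and acs4A (0.11) and of STZ in acs4A (0.096), and called STZ in acs5D (0.023). STZ in acs4A was also lost with the trended robust prior (0.055) and array weights (0.11), and array weights called WRKY53 in acs5D (0.044). Array weights gave 5, 10 and 2 pairs in the single set, and adjusted p-values of the F-test of 0.018 for STZ and 0.012 for ORA47. The bioC level as a batch term gave 1 pair for STZ and 8 for WRKY53, and lines at 1 bioC level gave 2 calls of WRKY53 against the other lines. A second quantile normalization called STZ in 1 single pair and 0 higher order lines, and the trended robust prior in 0. Dropping probe sets below the median level called STZ in 2 pairs of each set and gave no value for the dimmer members it removed. Among the other named genes PUB22 in acs9B was called under the second quantile normalization (adjusted p = 0.030), the trended prior (0.046) and this filter (0.038), and WRKY6 in acs5C under the filter (0.049). Bonferroni adjustment left 0 calls for STZ, WRKY53 and ORA47 in either set except WRKY53 in miR (1 higher order line). Replicate numbers did not pair the samples, since in no comparison did all 3 correlations of same-numbered arrays pass 0.1. With the replicate block, STZ in miR was no longer called (adjusted p = 0.050, 0 higher order lines), and no other call of the 3 genes described above changed. Correlations that lost or gained their call were those of STZ and WRKY53 (0.41 within groups of the single set, 0.49 without Col in the higher order set) and of WRKY53 and ORA47 (0.28 and 0.70 within groups of the single and higher order sets). The cause was not tested.

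Leaving out 1 array gave these ranges of calls. Against Col, STZ was called in 2 to 5 single and 0 to 2 higher order lines, WRKY53 in 5 to 8 and 2 to 3, and ORA47 in 7 to 8 and 0 to 2. Between lines, STZ was called in 0 to 3 single and 0 to 3 higher order pairs, WRKY53 in 1 to 8 and 2 to 3, and ORA47 in 0 and 1 to 2. The adjusted p of the F-test ran from 0.011 to 0.20 for STZ in the single set and from 0.00036 to 0.059 in the higher order set, for WRKY53 from 0.00016 to 0.0024 and from 5.6e-05 to 0.0031, and for ORA47 from 0.0997 to 0.64 and from 0.00088 to 0.023. Only 3 arrays per group and 1 probe set per gene limit all of these values, and in the single set the Col arrays also differed in the added transcripts.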
